A study of Homo sapiens with 8 samples.

Results

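Accessible regions that carry the serum response element were collected from HUDEP-2 cells, an established human erythroid progenitor line, and compared between cells given stem cell factor (SCF) and cells given phosphate-buffered saline (PBS). The element is also called the CArG box, a word of 10 bases with 2 C, then 6 A or T, then 2 G. The 4 ATAC-seq peak lists of cells with a control guide were merged wherever peaks shared 1 bp, and each merged region took its summit from the peak that ranked highest within its own list. A region was kept when a whole CArG box lay within 100 bp of the summit on the GRCh37 reference. Of 43569 regions on the 24 chromosomes, 400 met this rule, which is 0.918%. They held 405 boxes, with a pair of boxes in 5 regions and 3 or more boxes in 0 regions.

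ATAC-seq uses the transposase Tn5 to cut and tag open chromatin, and the reads therefore gather at accessible sites. All cells compared carried the sgControl construct, a scramble guide, were kept without growth factors for 5 h, and then received PBS or 50 ng/ml SCF for 1 h. There were 2 libraries per treatment, from 50000 cells each, described in the methods as biological duplicates of 1 cell line. The 4 libraries with a guide against EGR1 were not analysed here. Every value below therefore belongs to a single immortalised line that carries a control construct, and p-values measure only the spread between these libraries.

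The CArG box is the DNA word bound by serum response factor (SRF), a MADS-box protein that binds it as a dimer. Signals through the ERK kinases act on SRF by way of ternary complex factors of the ETS family, such as ELK1 and ELK4, and are known for the rapid induction of immediate early genes such as FOS and EGR1. Signals through the actin cytoskeleton act by way of the coactivators MRTFA and MRTFB, and are known for control of genes of actin, adhesion and contraction. SCF is the ligand of the receptor tyrosine kinase KIT, which activates the ERK pathway.

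The boxes that lay within 100 bp of a summit at promoters of known SRF targets are shown first, since they are the members whose regulation by SRF is textbook knowledge. Each sequence was read 5′ to 3′ from the plus strand of GRCh37, with the CArG box in capitals and 10 bases on each side in lower case.
SRF, first box, chr6:43138967-43138996: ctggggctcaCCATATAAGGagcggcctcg
SRF, second box, chr6:43138987-43139016: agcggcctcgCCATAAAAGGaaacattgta
VCL, chr10:75757609-75757638: cccaccatgcCCTTATAAGGagcgcccggc
CNN2, chr19:1026508-1026537: cgcctccaggCCTTATAAGGacatttgcgc
TPM4, chr19:16189796-16189825: gcctcttttaCCTTATAAGGgaaatccttt
ACTG1, chr17:79479900-79479929: cagaacatgtCCATATATGGcgatctttcc
ACTB, chr7:5569426-5569455: cgcgttattaCCATAAAAGGcaaacactgg
FHL2, chr2:106055052-106055081: ctcccacgtgCCTTTTAAGGtctccagatt
Both boxes of SRF lay just upstream of its start, and the first was centred 0.5 bp from the summit. The boxes of VCL, CNN2 and TPM4 had the same 10 bases, a word that reads alike on both strands.

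A second set shows boxes that lay inside the accessible promoter region but beyond the 100 bp limit, so that FOS, FOSB and EGR1 were not counted among the 400. For EGR1, a zinc finger factor with 5 boxes in its promoter region, the box nearest the summit is shown.
FOS, chr14:75745207-75745236: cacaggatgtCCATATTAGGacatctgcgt
FOSB, chr19:45970970-45970999: cggccgagctCCTTATATGGctaattgcgt
EGR1, chr5:137801053-137801082: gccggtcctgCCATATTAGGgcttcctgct
The box of FOS was centred 125.5 bp from the summit, that of FOSB 118.5 bp and that of EGR1 105.5 bp. These boxes flanked the point of highest signal and were not under it. The map of boxes at listed genes shows the same arrangement for EGR2, IER2 and MCL1, and for the cytoskeletal genes TPM2, MYH9 and SMTN.

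**Figure D1:**
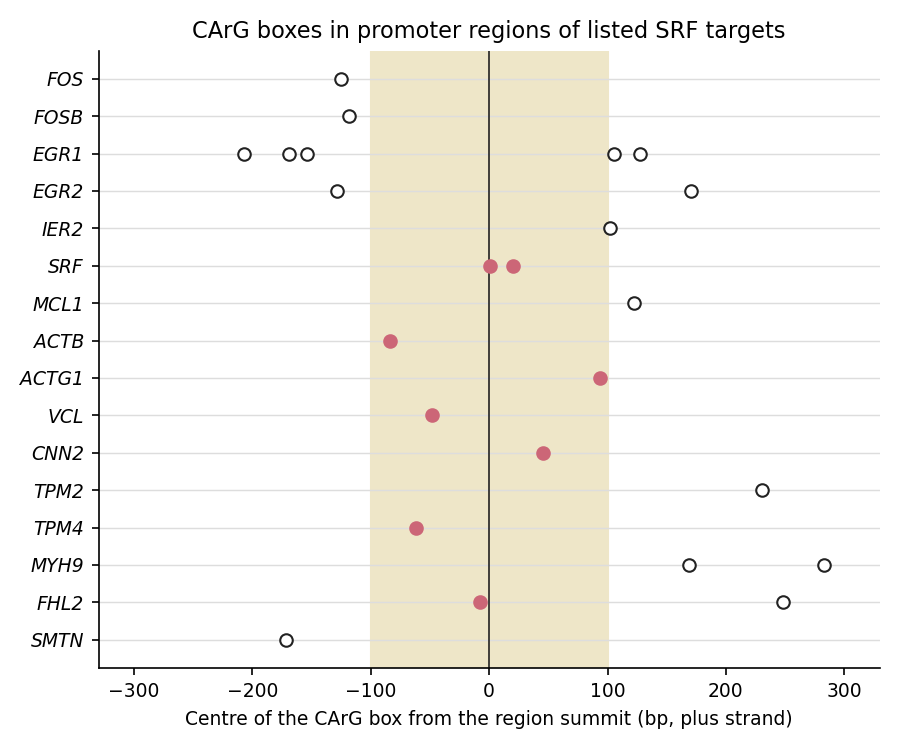
Centre of each CArG box relative to the summit of its promoter region, in bp along the plus strand, for genes of the immediate early and cytoskeletal lists. Filled points lie wholly within 100 bp of the summit (shaded band) and open points lie outside it. SRF and 6 cytoskeletal genes have a filled point. FOS, FOSB, EGR1, EGR2, IER2 and MCL1 have open points alone, and so do TPM2, MYH9 and SMTN of the cytoskeletal list. Further boxes at ZFP36, CFL1, ACTB and TPM4 lie beyond the axis and are not drawn.

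By an estimate from the local background, both SCF libraries were shallower than both PBS libraries. The lists held 29269 to 33616 peaks. SCF replicate 2, the shallowest by this estimate, held 33324, against 30240 in PBS replicate 1. With the depth of PBS replicate 1 set to 1, the local background gave a depth of 1.42 for the other PBS library and of 0.883 and 0.843 for SCF replicates 1 and 2. Read totals are unknown. The erythroid identity was checked at promoters: 10 of 12 erythroid markers had a promoter region and 8 were called in all 4 libraries, GATA1, KLF1 and TAL1 among them. Of 6 markers of other lineages, 2 had a promoter region, and 1 of them was called in all 4 libraries. The 2 fetal globin genes of the marker list had no promoter region.

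Promoter regions were those with a summit within 1 kb of a transcript start, and all others were called distal. CArG regions were mostly distal: 121 of 400 were promoters, or 30.25% (95% Wilson interval 25.95 to 34.92%), against 40.58% of all regions. The box is rich in A and T, and CArG regions had a median GC content of 47.8% against 54.2% for all regions. When the other regions were weighted to the GC content of the CArG regions, in bins of 5 percentage points, 27.58% of them were promoters, which lay inside the interval. Of the 279 distal regions, 176 lay in introns, 95 between genes and 8 in exons. As shares of the 400 these were 44, 23.75 and 2.00%, against 35.76, 19.39 and 4.26% of all regions. After GC weighting the other regions gave 45.06, 22.98 and 4.37%. The 95% Wilson intervals of the intron and intergenic shares held the weighted values. That of the exon share (1.02 to 3.90%) held neither value, but it rests on 8 regions and was not tested. The box was present in 0.684% of all promoter regions and 1.08% of all distal regions.

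The frequency of the box by GC content was not even. It was found in 1.53% of regions with 45 to 50% GC and in 0.326% of regions with 60 to 65% GC. From 70 to 75% GC it was found in 0.816%, and 26 of these 28 regions were promoters. In the next bin, 75 to 80% GC, the share was 0.166%, from 4 regions, so the higher value rested on 1 bin.

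The CArG box as a class did not gather under the summits. Over all 43569 regions, 405 boxes lay within 100 bp of the summit, and the density was 0.991 times that found 200 to 500 bp away. A mirror word with the ends exchanged, 2 G, then 6 A or T, then 2 C, has the same base composition. It lay near the summit 300 times, with a density 0.833 times that farther out. The mirror word was thus depleted near the summit while the CArG box was level, as the plot of both words by distance shows. These densities are descriptions of 1 set of regions and carry no test.

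**Figure D2:**
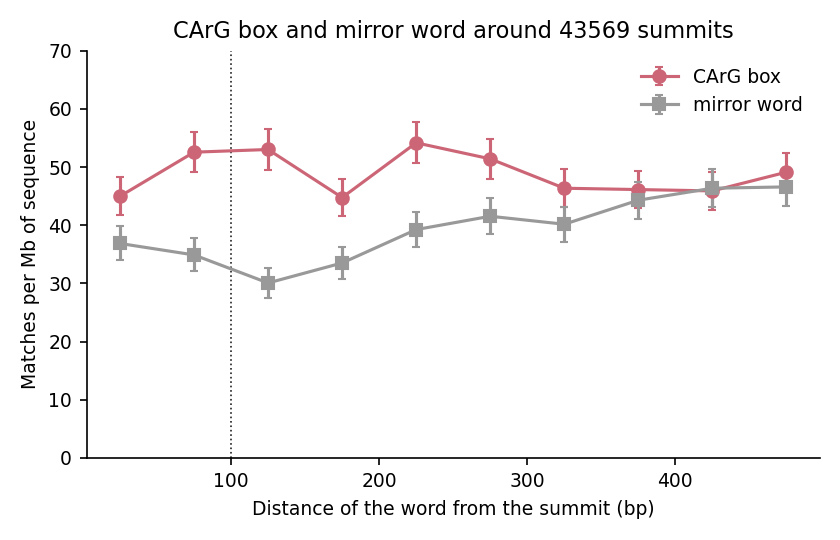
Matches per Mb of sequence (vertical axis) in rings of 50 bp by distance from the summit (horizontal axis, bp) for the CArG box and the mirror word, over 43569 regions. Bars are counting errors (1 SD, Poisson), and the dotted line marks 100 bp. The CArG box stays between 44.8 and 54.2 matches per Mb, whereas the mirror word falls from 46.6 in the outermost ring to 30.1 between 100 and 150 bp and is at 36.9 in the innermost ring.

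The 405 boxes spanned all 36 words that the CArG rule allows when both strands are read as 1. The 3 most frequent were CCTTAAAAGG with 37 boxes (9.14%), CCAAAAAAGG with 32 (7.90%) and CCAAATAAGG with 29 (7.16%). These 3 had near-to-far density ratios of 1.12, 1.22 and 1.19. The word CCTTATAAGG, which was singled out after its values were seen, was found 15 times near a summit and 11 times at 200 to 500 bp, a ratio of 4.26. At promoters its counts were 8 and 3, a ratio of 8.33. The 8 promoter boxes included VCL, CNN2, TPM4, MYADM, NR2F2, RPL24 and GSTP1. CCATATAAGG, also chosen after its values were seen, was found 8 times near promoter summits and 5 times farther out, and its ratio was 5.00 at promoters and 1.09 at distal regions. All of these words contain few matches, and no ratio was tested.

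Within promoter regions the boxes sat mainly upstream of the start. Of 125 promoter boxes, 89 (71.2%) were upstream of the nearest transcript start, and 63 of these were within 200 bp of it. No share for other promoter regions is set beside this value. The boxes were also chosen by their distance from the summit, so the share is not read as a trait of the box. Over all boxes, 229 lay in introns, 139 between genes, 20 in UTRs, 15 in non-coding exons and 2 in coding exons. ETS factors bind a core of GGAA or GGAT, and SRF partners of that family bind beside the box. Only GGAA was searched, in the bases outside the box, so sites with GGAT were not counted. A GGAA core, on either strand, was found within 20 bp of 129 of 405 CArG boxes (31.85%, 95% Wilson interval 27.5 to 36.5%) and of 90 of 300 mirror words (30%, 25.1 to 35.4%). The shares overlapped.

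Other words near the same summits were counted on both strands, with overlap between words allowed. The AP-1 word TGANTCA was found in 36 CArG regions (9%, 95% Wilson interval 6.57 to 12.2%), against 8.44% of all regions and 10.67% of other regions weighted by GC. The GATA word, A or T followed by GATAA, was found in 135 (33.75%, 29.3 to 38.5%), against 25.45% of all regions and 35.2% after weighting. The EGR word GCGTGGG was found in 9 (2.25%, against 2.32% after weighting) and the cAMP response element TGACGTCA in 2 (0.500%, against 0.427%). The stricter ETS word CCGGAA was found in 16 (4.00%, 2.48 to 6.4%), against 5.23% after weighting. Each GC-weighted share lay inside the interval of the CArG regions, so the makeup of their neighbouring words was not distinguishable from that of other regions of like GC content at this number of regions.

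The next question was how regularly the CArG regions were called. All 4 libraries called 161 of the 400 (40.25%, 95% Wilson interval 35.56 to 45.13%), whereas the background over all regions was 51.3% and the GC-weighted value was 42.7%. At promoters, 73 of 121 were called in all 4 libraries (60.33%, 51.4 to 68.6%), against 74.94% of all promoter regions and 66.58% after weighting. At distal sites, 88 of 279 were so called (31.54%, 26.4 to 37.2%), against 35.17% and 32.99%. The interval of the CArG promoters thus held the GC-weighted value but not the unweighted one. A further 123 regions were called in 1 library (30.75%, against 26.49% of all regions and 32.04% after weighting). Another 65 were called in 2 libraries (16.25%, against 11.95% and 13.8%) and 51 in 3 (12.75%, against 10.25% and 11.47%). Each GC-weighted value lay inside the 95% Wilson interval of the CArG share.

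The number of CArG regions called per library was 240 and 306 for PBS replicates 1 and 2, and 221 and 283 for SCF replicates 1 and 2. As shares of the 400 these were 60, 76.5, 55.3 and 70.8%, beside 68.5, 76.5, 66.1 and 75.3% of all regions. Both replicate 2 libraries were above both replicate 1 libraries among CArG regions and among all regions, and the treatments overlapped. Replicate numbers here are those of the titles, whereas peak names inside the lists number the PBS replicates 2 and 3 but the SCF replicates 1 and 2, so an equal number does not show that libraries belong together. The PBS mean was 273 ± 46.7 and the SCF mean 252 ± 43.8 (SD, 2 libraries each), with an exact two-sided permutation p of 0.667, where 0.333 is the smallest that this design allows. PBS replicate 2, the deepest library by the estimate, called the most, and SCF replicate 2, the shallowest, called the next most. The part of depth in these counts was not tested.

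Regions called with a single treatment were few. SCF-only regions had a peak in each SCF list and none in the PBS lists. They numbered 8 of 400 (2.00%, 95% Wilson interval 1.02 to 3.90%). The background was 1.65% of all regions, and 1.83% after GC weighting. PBS-only regions numbered 16 (4.00%, 2.48 to 6.4%), against a background of 2.37% and a GC-weighted 2.75%. Both intervals held the GC-weighted value, while the unweighted background of PBS-only regions lay just below its interval.

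Split by position, the SCF-only regions were all distal. They numbered 0 of 121 promoters, which allows a share of up to 3.08% by the Wilson interval, against a background of 0.797%, and 8 of 279 distal regions (2.87%) against 2.23%. PBS-only regions numbered 6 of 121 promoters (4.96%, 95% Wilson interval 2.29 to 10.4%), against a background of 1.40% of promoter regions and 1.78% after GC weighting. They numbered 10 of 279 distal regions (3.58%) against 3.04%. The interval of PBS-only promoters was the one of these that held neither background value. It rests on 6 regions, and both PBS libraries were deeper than both SCF libraries, whose part in the result was not tested. When each list was cut to the same length, PBS-only promoters numbered 2 of 116 (1.72%, background 1.14%), and with peaks limited to a −log10 q of at least 5 they numbered 1 of 93 (1.08%, background 1.56%). PBS-only regions of both positions then numbered 9 of 353 (2.55%, background 2.22%) and 9 of 272 (3.31%, background 2.86%). A peak list that leaves out a weak site does not show that the site was closed. The plot of call shares sets these values beside both backgrounds.

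**Figure D3:**
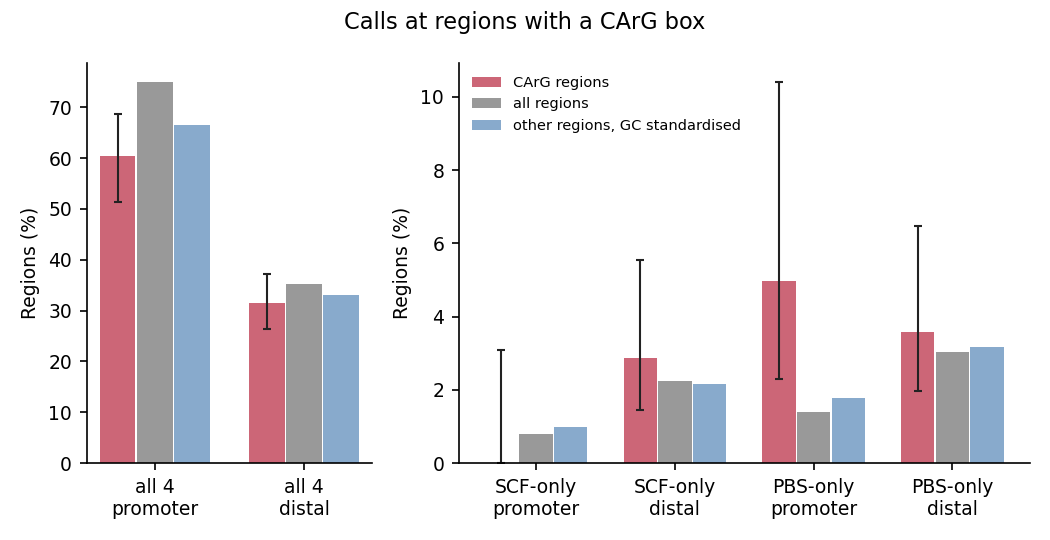
Share of regions (vertical axis, %) called in all 4 libraries (left) and with a single treatment (right), at promoters and distal sites, for CArG regions, all regions and other regions weighted to the same GC content. Bars on the CArG shares are 95% Wilson intervals. Intervals hold the GC-weighted value in every class except PBS-only promoters (4.96% against 1.78%).

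The SCF-only regions were weak peaks. Their summit pileups, the number of fragments over the summit, ran from 6 to 14, below the median pileup of 20 to 26 in the 4 lists. The 5 with the highest mean percentile rank (100 is the highest peak of a list, by fold enrichment) were as follows, each given by the nearest protein-coding start. The first lay in an exon of the non-coding gene ENSG00000272211 (chr2:197018133-197018446), 3.03 kb downstream of the start of STK17B, a kinase of the death-associated family, with ranks of 43.0 and 39.7 in SCF replicates 1 and 2. The second (chr14:81930991-81931289) lay 19.8 kb downstream of the start of SEL1L, an adaptor of endoplasmic reticulum protein degradation, between genes, with ranks of 16.9 and 48.7. The others lay in an intron of BEND6 (34.9 and 22.7), 8.06 kb upstream of SYCN (37.4 and 19.5) and in an intron of ENSG00000236453, 60.4 kb upstream of BET1 (38.2 and 7.92). Of the 8, 5 held the GATA word and 3 held the AP-1 word, which 36.4% and 11.5% of all distal regions hold. Of the 16 PBS-only regions, 4 held the GATA word and 1 the AP-1 word. However, 6 of these 16 were promoters, whereas the 8 SCF-only regions were all distal. Among all promoter regions, 9.41% hold the GATA word and 3.97% the AP-1 word, so the 2 sets have unlike backgrounds. These few regions were not tested for a difference.

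The PBS-only regions were of the same kind, with pileups from 7 to 29. Among the 5 highest were a region in an intron of RAD51B, a gene of homologous recombination (ranks 15.7 and 40.9 in PBS replicates 1 and 2), and a region near MINAR2 (15.7 and 38.0). They also held the promoter of the non-coding gene ENSG00000258558 (8.57 and 43.1) and the promoter of TRPV2, a cation channel of the TRP family (18 and 28.6). Other PBS-only promoters, named after their values were seen, were those of STPG1, FURIN and STARD8, with mean ranks of 8.01, 1.63 and 9.21. All 6 promoters thus stood low in the PBS lists, with mean ranks of at most 25.8.

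The box at the strongest PBS-only promoter of a protein-coding gene and that at the strongest SCF-only site are given for comparison with the promoter boxes above.
TRPV2, chr17:16318642-16318671: caactcaggcCCATTTATGGgccacacggc
STK17B, chr2:197018282-197018311: tgtccaacacCCATATTTGGtttctaaatg

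Among the 161 CArG regions called in all 4 libraries, ranks were close between treatments. The median difference in mean rank, SCF minus PBS, was −1.18 points, against −0.534 over all 22355 regions called in all 4. It was −1.64 at the 73 promoters (−0.758 for all promoter regions) and 0.475 at the 88 distal regions (0.0948 for all distal regions). Mean rank was higher with SCF in 74 regions and lower in 87. Both SCF ranks lay above both PBS ranks in 22 regions and below them in 34, which is 13.7% and 21.1%, against backgrounds of 16.0% and 19.3%. At promoters the counts were 7 and 20 of 73 (9.59% and 27.4%), against 14.4% and 20.9% of all promoter regions. At distal sites they were 15 and 14 of 88, against 18.3% and 16.9%.

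limma, fitted to the log2 fold enrichment of all 22355 regions called in all 4 libraries after quantile normalisation, called 0 of the 161 CArG regions and 0 regions in all at a Benjamini-Hochberg adjusted p under 0.05 (background 0%). The lowest adjusted p was 0.700. At an unadjusted p under 0.05, 17 of 161 CArG regions passed (10.6%), against a background of 6.79%. Of these, 10 were higher with SCF (background 3.66%) and 7 lower (background 3.13%). These counts changed when a library was left out, which leaves 1 library for a treatment. Without SCF replicate 1 the CArG share lay below that of all regions, and in the other such fits above it. Without SCF replicate 2, lower regions outnumbered higher ones. The median log2 difference of CArG regions was 0.0236 without SCF replicate 1 and −0.0501 without SCF replicate 2. It was −0.0138 without PBS replicate 1 and −0.0361 without PBS replicate 2. With the recovered summit pileup in place of the fold enrichment, an alternative chosen after seeing the data, 5 were higher and 8 lower of 160 (8.12%, background 7.11%). The fitted log2 differences ran from −0.71 to 0.61.

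A rank gain required the lower SCF rank to exceed the higher PBS rank by 10 points or more. There were 6 gains among 161 (3.73%, 95% Wilson interval 1.72 to 7.89%), against a background of 2.56% and a GC-weighted 3.22%. Rank losses, defined in the other direction, numbered 4 (2.48%, 0.970 to 6.21%), against 3.04% and 3.30%. At promoters there was 1 gain (background 1.18%) and 2 losses (2.25%) among 73. At distal sites there were 5 gains (4.56%) and 2 losses (4.18%) among 88. All of these shares were near the background. With a gap of 20 points there were 0 gains and 0 losses, and ranking by the −log10 p left 2 gains and 4 losses.

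**Figure D4:**
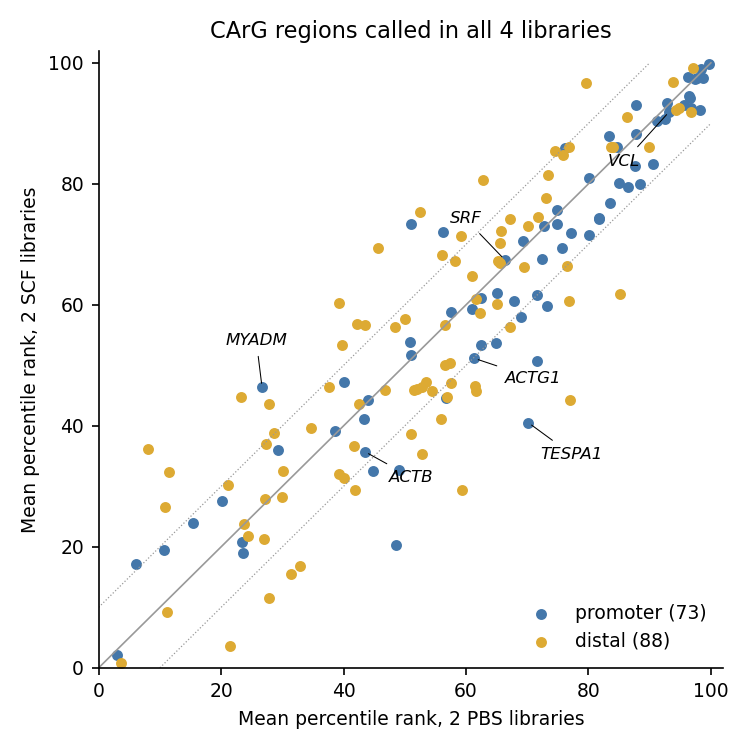
Mean percentile rank in the 2 PBS libraries (horizontal axis) and the 2 SCF libraries (vertical axis) of the 161 CArG regions called in all 4 libraries, with 73 promoters in blue and 88 distal regions in yellow. The solid line marks equal ranks and the dotted lines a difference of 10 points. SRF and VCL lie near the solid line and ACTB between the lines, ACTG1 lies just past the lower dotted line, and MYADM lies above and TESPA1 below the dotted lines.

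The 5 largest gains were 4 distal sites and 1 promoter, and their values are given as a description, since rank chose them. The site with the largest gap lay 7.11 kb upstream of FGFR1 (chr8:38333169-38333785), a receptor tyrosine kinase gene. Its ranks were 40.4 and 50.9 in PBS replicates 1 and 2 and 67.7 and 71.1 in SCF replicates 1 and 2, and both SCF values lay above both PBS values. The limma log2 difference was 0.56 ± 0.14 (SE, adjusted p = 0.700). The box was centred 1.5 bp from the summit, and the window also held the AP-1 and EGR words.

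In an intron of ELOVL6 (chr4:111084531-111085091), a fatty acid elongase gene, ranks were 11.2 and 5.04 in PBS and 25.6 and 46.9 in SCF libraries, with pileups of 10 to 15 fragments. At 43.9 kb upstream of ARHGAP12 (chr10:32261239-32262044), which encodes a GTPase-activating protein, ranks were 81.4 and 77.9 in PBS and 97.7 and 95.5 in SCF libraries. At 19.6 kb upstream of ABT1 (chr6:26576811-26577879) they were 4.61 and 18.3 in PBS and 35.7 and 28.9 in SCF libraries. The ARHGAP12 site ranked highest of the 6 gains, while the ABT1 site ranked below the median of the CArG regions in each list.

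The promoter that gained rank was that of MYADM (chr19:54371734-54373015), a membrane protein associated with myeloid differentiation and the cortical cytoskeleton. Its ranks were 31.5 and 21.9 in PBS and 48.3 and 44.4 in SCF libraries, and its recovered pileups were 82 and 87 in PBS and 93 and 81 in SCF libraries. The ranks did not overlap, whereas the pileups did, but pileups are not scaled to the depth of each library. The limma log2 difference was 0.42 ± 0.17 (SE, adjusted p = 0.714). The box lay in the UTR and was the self-complementary word shared with VCL, CNN2 and TPM4.

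The 4 losses were 2 promoters and 2 intronic sites. At the promoter of TESPA1 (chr12:55378417-55378954), a protein known from T cell receptor signalling, ranks were 72.1 and 68.2 in PBS and 32.6 and 48.4 in SCF libraries, with pileups of 29 and 28 against 12 and 17. Both SCF ranks were lower. The pileups were lower too, but they are not scaled to depth and both SCF libraries were shallower. The limma log2 difference was −0.64 ± 0.16 (SE, adjusted p = 0.700). At the promoter of the antisense RNA NFIA-AS1 (chr1:61718777-61719429), ranks were 40.6 and 56.5 in PBS and 12.3 and 28.4 in SCF libraries. In an intron of WDR64 (chr1:241859206-241860429) they were 51.6 and 67.0 in PBS and 21.5 and 37.2 in SCF libraries. In an intron of URM1 (chr9:131134503-131135258), a ubiquitin-related modifier, they were 21.0 and 21.8 in PBS and 3.09 and 4.22 in SCF libraries. Boxes of a gain and a loss at promoters are shown together.
MYADM, chr19:54372663-54372692: gactcgaagcCCTTATAAGGcgcggagaca
TESPA1, chr12:55378725-55378754: gagatcttttCCTATTAAGGcaaaggtaca

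The members of the SRF pathway itself were then read one by one. The promoter of SRF (chr6:43138532-43139446), a gene known to be a target of its own product, was called in all 4 libraries with ranks of 64.8 and 67.8 in PBS and 69.3 and 65.6 in SCF libraries. Its pileups of 175 to 281 fragments were far above the list medians of 20 to 26. The treatments overlapped, and the mean rank was 66.3 ± 2.14 with PBS and 67.5 ± 2.58 with SCF (SD, n = 2). The limma log2 difference was 0.04 ± 0.15 (SE, adjusted p = 0.983). Of the 7 genes for SRF and its cofactors, 6 had a promoter region, 5 had one called in all 4 libraries, and SRF was the only one with a CArG box in it.

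Of 34 cytoskeletal and contractile genes known as SRF and MRTF targets, 26 had a promoter region, 21 had one called in all 4 libraries and 6 had a CArG region at the promoter. These were VCL, ACTG1, ACTB, TPM4, CNN2 and FHL2. Of these 6, 5 were called in all 4 libraries, and the limma fit to all 22355 regions so called gave 0 calls among them in either direction. Of the 21 promoter regions called in all 4 libraries, with or without a box, 0 had both SCF ranks above both PBS ranks and 4 had both below, those of ACTB, ACTG1, TLN1 and SMTN. Among all promoter regions called in all 4 libraries, 14.4% lay above and 20.9% below in this way. Each gene was read at a single promoter region, which at SMTN is not the one that holds its box. The promoter of VCL (chr10:75757271-75758192), which encodes the adhesion protein vinculin, ranked 92.6 and 93.8 in PBS and 92.9 and 91.0 in SCF libraries. It was the highest of the 6, and the treatments overlapped.

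The cytoplasmic actin genes had lower ranks with SCF in both libraries. At ACTG1 (chr17:79479132-79480277), which encodes gamma-actin, ranks were 65.0 and 57.7 in PBS and 50.3 and 52.0 in SCF libraries (two-sided exact permutation p = 0.333, n = 2). The limma log2 difference was −0.21 ± 0.16 (SE, adjusted p = 0.866). At ACTB (chr7:5569057-5570638), which encodes beta-actin, ranks were 47.7 and 39.2 in PBS and 35.9 and 35.6 in SCF libraries, and the limma log2 difference was −0.13 ± 0.16 (SE, adjusted p = 0.929). The groups did not overlap at either gene, which 20.9% of all promoter regions called in all 4 libraries show in this direction, and neither passed the test. ACTB had a further box, 765.5 bp from the summit.

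The remaining cytoskeletal members varied between replicates. At TPM4 (chr19:16189461-16190232), a tropomyosin gene, ranks were 66.1 and 80.4 in PBS and 50.5 and 69.2 in SCF libraries. At CNN2 (chr19:1026263-1026880), which encodes calponin 2, they were 10.9 and 36.3 in PBS and 18 and 20.1 in SCF libraries. The spread between the PBS replicates of CNN2 exceeded the difference between treatments, and both genes overlapped. The CArG region at FHL2 (chr2:106054917-106055293), a LIM-domain cofactor gene, was called in PBS replicate 2 alone, with a rank of 43.1, whereas another promoter region of the same gene was called in all 4 libraries.

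**Figure D5:**
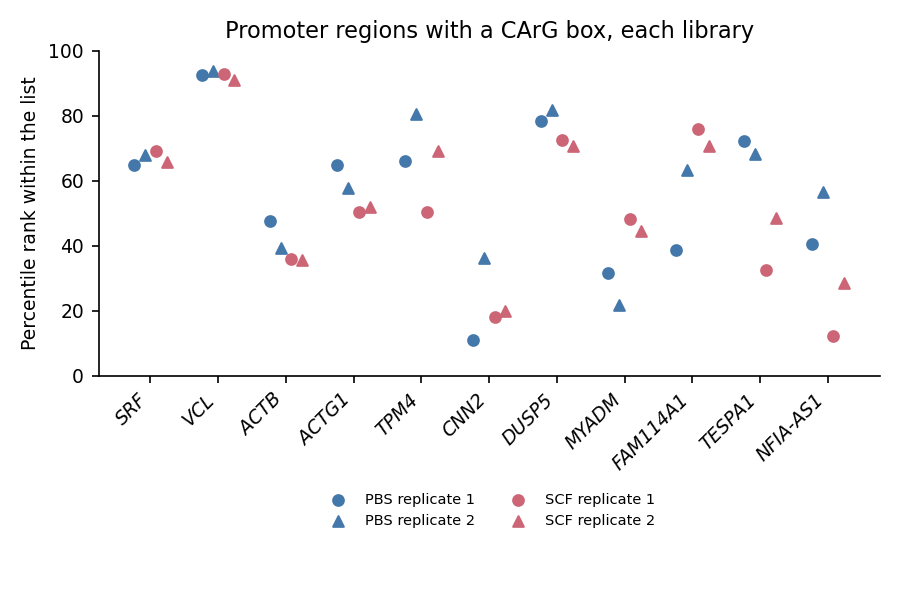
Percentile rank within each list (vertical axis) of 11 promoter regions with a CArG box, 1 point per library, with PBS in blue, SCF in red, replicate 1 as circles and replicate 2 as triangles. At SRF, VCL, TPM4 and CNN2 the treatments overlap, whereas at MYADM and FAM114A1 both SCF points lie above both PBS points and at ACTG1, ACTB, DUSP5, TESPA1 and NFIA-AS1 they lie below.

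Among 16 immediate early genes known as targets of SRF with ternary complex factors, all 16 had a promoter region and 14 had one called in all 4 libraries. A CArG box within 100 bp of the summit was found at the promoter of 1, SRF itself, while 8 had a box somewhere in a promoter region. Over all 17681 promoter regions, 540 (3.05%) had a box anywhere and 121 (0.684%) had it near the summit. The list was chosen for known SRF targets, so its share of boxes is not independent evidence. The promoter region of FOS ranked 55.8 and 60.5 in PBS and 60.5 and 56.3 in SCF libraries, and that of EGR1 69.6 and 73.2 in PBS and 73.2 and 74.7 in SCF libraries. Both genes overlapped between treatments, EGR1 only at the value of 73.2 that a PBS and an SCF library share after rounding. Of the 14 called in all 4 libraries, 9 overlapped, 3 had both SCF ranks above both PBS ranks (CCN2, ARC and NAB2) and 2 had both below (FOSB and EGR2), where 14.4 and 20.9% of all promoter regions called in all 4 libraries do. The widest gap was at ARC, with ranks of 65.0 and 63.3 in PBS and 75.3 and 80.8 in SCF libraries. limma called 0 of the 14, with a lowest adjusted p of 0.729. These 5 genes were named after their values were seen, and their promoter regions are not CArG regions.

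A CArG region within 15 kb was found at FOS and CCN1. The first (chr14:75760644-75761370) lay 14.0 kb downstream of the FOS start, at the promoter of the non-coding gene LINC01220, with ranks of 90.7 and 84.9 in PBS and 83.5 and 93.1 in SCF libraries. It was a strong site, and the treatments overlapped. The other (chr1:86042321-86043120) lay 3.82 kb upstream of CCN1, a secreted matricellular protein of the early response, at the start of the non-coding gene ENSG00000282057. Its ranks of 13.0 and 45.4 in PBS and 25.7 and 46.4 in SCF libraries differed more between replicates than between treatments.

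The strongest CArG promoters are given as a description, since rank chose them and ranks close to 100 leave little room for a difference between treatments. The 5 with the highest mean rank were those of ENSG00000173867, TICRR, SLC39A8, ING4 and DESI2. The promoter of TICRR, a regulator of replication initiation, ranked 97.9 and 98.8 in PBS and 98.7 and 99.4 in SCF libraries. At the promoter of SLC39A8, a zinc and manganese transporter of the ZIP family, ranks were 98.2 and 99.2 in PBS and 96.5 and 98.6 in SCF libraries. The promoter of ING4, a chromatin reader of the inhibitor of growth family, ranked 97.1 and 98.4 in PBS and 96.7 and 98.1 in SCF libraries, and it held 2 boxes of the most frequent word. Adjusted p-values from limma at these 5 promoters ran from 0.944 to 0.998, and the treatments overlapped at the 3 described.

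The strongest distal CArG regions were in some cases far from protein-coding starts. The first (chr6:116012657-116013303) lay between genes, 369 kb from the start of FRK, the nearest protein-coding start, and held the AP-1 word. Its ranks were 95.2 and 98.9 in PBS and 98.8 and 99.5 in SCF libraries. The site upstream of SULT2A1 (chr19:48394925-48395922), a sulfotransferase gene, ranked 95.2 and 92.6 in PBS and 96.8 and 96.8 in SCF libraries. In an intron of FOXK1 (chr7:4784182-4785340), a forkhead factor gene, ranks were 95.5 and 98.1 in PBS and 91.5 and 92.1 in SCF libraries. The remaining 2 lay in an intron of ENSG00000224610, 351 kb from the start of MID1IP1, and in an exon of SYP. The SULT2A1 site was higher and the FOXK1 site lower in both SCF libraries, with limma log2 differences of 0.13 ± 0.14 (SE, adjusted p = 0.922) and −0.21 ± 0.14 (SE, adjusted p = 0.843).

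The promoter of DUSP5, a phosphatase of nuclear ERK, was chosen after its values were seen because its 2 boxes abut without a gap.
DUSP5, first box, chr10:112257575-112257604: ggggaaacacCCATATTTGGccttatatgg
DUSP5, second box, chr10:112257585-112257614: ccatatttggCCTTATATGGgcagccgcgt
Its ranks were 78.4 and 81.7 in PBS and 72.4 and 70.6 in SCF libraries. Both SCF values were lower, with a limma log2 difference of −0.19 ± 0.14 (SE, adjusted p = 0.864). The promoter of FAM114A1, also chosen after its values were seen, had ranks of 38.8 and 63.4 in PBS and 76.0 and 70.8 in SCF libraries.

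Values on both sides of the limit are given without a test. In 42 regions the nearest box was centred 85.5 to 95.5 bp from the summit, just inside the limit, and 10 of these were promoters, 15 were called in all 4 libraries and the median rank was 26.6. In 40 regions it was centred 95.5 to 105.5 bp away, just outside, and 8 were promoters, 20 were called in all 4 libraries and the median rank was 34.8.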

How the data were processed

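ATAC-seq was performed on HUDEP-2 cells in 8 samples of 4 groups, and the peak lists of the 4 sgControl libraries were used. The authors sequenced paired ends and ran the ENCODE ATAC-seq pipeline. The submitters' processing notes name bcl2fastq, Bowtie2, SAMtools and hg38, whereas the series text and line 1 of each deposited list name hg19, so coordinates were read as hg19. The caller and its settings are not given in the sources used here. The lists are separate for each library, with no pooling of replicates.

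The deposited lists hold a whole-number score, which was not used, a fold enrichment (a ratio of summit pileup to local background, set by the authors' caller), and −log10 p and −log10 q (a p-value and a q-value for each peak, as deposited). The highest q-value was 0.0497. A whole-number summit pileup was recovered from the deposited fold enrichment and −log10 p in 100% of peaks with a −log10 p under 300 (relative tolerance 0.0001), and relative depth from the lowest local background. Read totals are unknown, so weak sites may be uncalled. Wilson intervals cover counting error only.

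Words were searched on both strands of GRCh37 (pysam 0.24.0) with transcript starts from GENCODE release 44 lifted to that build. Ranks, merging and shares were computed in Python 3.11.15 (numpy 2.4.6, pandas 2.3.3, scipy 1.17.1). Other regions were weighted to the GC content of the members in bins of 5 percentage points. limma 3.58.1 in R 4.3.3 was fitted to quantile-normalised log2 fold enrichment, and it was tested on simulated data. The exact permutation test over 4 libraries cannot go below 0.333.

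Members, gene lists and tests were chosen with earlier results of these data known. Regions named were those at listed SRF genes (promoters, and others within 15 kb), the 5 largest gains and losses of rank, the 5 highest SCF-only and PBS-only regions, the 5 highest promoters and distal regions, any region called by limma and the 3 most frequent words, with others named as chosen after their values were seen. A few regions that meet this rule are not reported here. Alternatives covered the window, the q-value and gap limits, equal peak numbers, the promoter limit, the ranking column, the normalisation, the GC bins, left-out libraries and a replicate block. A check of the titles' replicate numbers across the treatments gave a Pearson's r of 0.0114 over 22355 regions between the replicate 1 minus replicate 2 differences, which describes regions and not replicates.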

Additional observations from a re-analysis of the deposited data

How the results depend on the processing

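The number of CArG regions was 173 with the box within 50 bp of the summit and 1036 within 250 bp. The promoter share was 24.75% with a promoter limit of 500 bp and 42.75% with 3 kb. SCF-only regions numbered 3 within 50 bp and 22 within 250 bp. PBS-only regions numbered 7 and 28 with these windows, 9 with a −log10 q of at least 5 and 9 with the same number of peaks from each list. Rank gains numbered 3 within 50 bp, 16 within 250 bp, 2 when ranked by −log10 p, and 10 or 0 when the gap asked for was 5 or 20 points. Rank losses numbered 13 within 250 bp, 7 with equal peak numbers, and 13 or 0 with those gaps. A wider window or a smaller gap admits more regions by construction, and the cause of the other changes was not tested. With a library left out, the condition is looser because 1 library stands for a treatment: there were 12 to 49 SCF-only regions, the most without SCF replicate 1, and 24 to 65 PBS-only regions, the most without PBS replicate 1. Rank gains then numbered 10 to 31, the most without SCF replicate 1, and rank losses 9 to 41, the most without SCF replicate 2. The shares of all regions do not change with the window. They were not computed here for left-out libraries, nor for rank changes under the other settings. These counts are therefore not read as a result about CArG regions. limma gave 0 adjusted calls in each setting run, with lowest adjusted p-values from 0.581 to 0.781 at CArG regions or over all regions. The labels do not say that replicate numbers pair the libraries, peak names give other numbers that share only the number 2 (PBS replicate 1 and SCF replicate 2), and with a replicate block limma gave 0 adjusted calls and 17 of 161 CArG regions at an unadjusted p under 0.05, 10 higher and 7 lower, as without it. Of 90 alternative rank differences at 18 named regions other than gains and losses, 14 changed sign, in 7 regions. For gains and losses the rule itself fixes the sign when a library is left out. Depth was only estimated and read totals are unknown, which limits what can be said of weak sites.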
